A study of Mus musculus with 8 samples.

Results

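The Ly6 genes on mouse chromosome 15 were described in bulk RNA-seq of livers in which a deletion of Zfp36l1 and Zfp36l2 was aimed at hepatocytes, and of control livers. The rule named 9 of them, Ly6a, Ly6c1, Ly6c2, Ly6d, Ly6e, Ly6g, Ly6h, Ly6i and Ly6k, and 8 were found among the 22052 genes of the deposited table. Ly6h was not analysed here. All 8 passed the filter of a mean of at least 0.5 normalised reads over the 8 livers, but only 5 of them had a mean of 10 or more in either group. The genes were picked with the difference between the groups in view, so their own levels and changes are given as a description, with no test.

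Ly6 proteins are small, cysteine-rich proteins that fold as a single three-fingered domain and are held on the cell surface by a glycosylphosphatidylinositol (GPI) anchor. Several are the standard surface marks of blood and progenitor cells: Ly6a is Sca-1, which marks haematopoietic stem cells and many endothelial cells, Ly6c is high on inflammatory monocytes, and Ly6g marks neutrophils. Ly6d marks lymphoid progenitors committed to the B lineage and is also found in stratified epithelia, and Ly6e is an interferon-inducible gene that many tissues express. ZFP36L1 and ZFP36L2 are RNA-binding proteins with zinc fingers: they attach to AU-rich stretches of the 3′ untranslated region (UTR) of an mRNA and speed its decay.

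The dKO group held 4 livers of mice with floxed alleles of both genes and Cre under the albumin promoter (Zfp36l1fl/fl/Zfp36l2fl/fl/Alb-Cre), and the control group held 4 livers of mice with the same floxed alleles and no Cre. All 8 mice were adult males of strain C57BL6, 8 weeks old, and all had received corn oil into the peritoneum. The albumin promoter is active in hepatocytes, so other liver cells are not the cells the Cre was aimed at, and an effect of Cre itself cannot be told apart from that of the deletions because no control carried it. Each library was a whole-liver RNA sample from 1 mouse.

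Reads assigned to genes ranged between 17273389 and 19299556 in dKO livers and between 15253827 and 17745944 in control livers. Zfp36l1 averaged 226 ± 27.6 normalised reads in dKO livers and 1370 ± 194 in control livers (SD, n = 4 each), and Zfp36l2 averaged 796 ± 94.4 in dKO livers and 1584 ± 393 in control livers. For both genes the groups did not overlap (exact permutation test over 70 assignments, 2-sided p = 0.0286, the smallest this design can give). Hepatocyte genes were abundant in every library, with Alb between 797025 and 855738 normalised reads in dKO livers and between 723960 and 850697 in control livers. Control 4 stood nearer to the dKO livers than the other controls did in several marker sums: its monocyte marker sum was 1.78 times and its bile duct marker sum 1.59 times the control mean.

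Across the table, 20055 genes were tested (limma on log2(value + 0.5), Benjamini-Hochberg adjusted p under 0.05): 4244 genes, or 21.2%, were called higher in dKO livers and 3410, or 17.0%, lower. In 19.4% of the genes tested, all 4 dKO values lay above all 4 control values. Among the 8 Ly6 genes, 7 were called higher, Ly6i was not called in either direction, and 6 had dKO values all above the control values. Since the genes were picked on this contrast, nothing is read from these counts. Ly6d, Ly6e, Ly6a, Ly6c1 and Ly6c2, the 5 with enough reads to measure (a mean of at least 10 in a group), were among those 6, and the remaining one was Ly6g with a handful of reads.

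**Figure D1:**
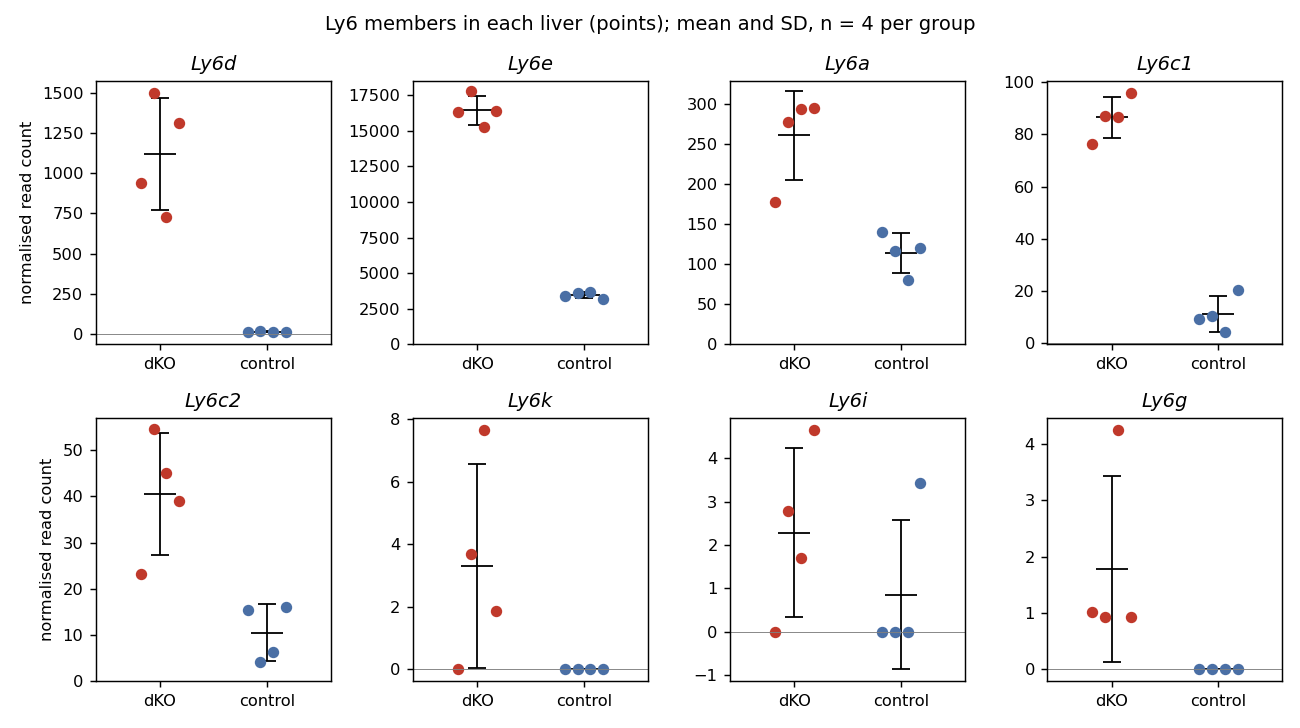
Normalised read count (y axis, linear, 1 scale per panel) of the 8 Ly6 genes in each of 4 dKO and 4 control livers; points are livers, the horizontal mark and bars are the mean and SD. In Ly6d, Ly6e, Ly6a, Ly6c1 and Ly6c2 every dKO liver lies above every control liver, while Ly6k, Ly6i and Ly6g stay under 8 normalised reads in all livers.

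Ly6d had 936, 1498, 729 and 1314 normalised reads in dKO livers 1 to 4, against 14.4, 17.4, 11.6 and 12.6 in control livers 1 to 4. The lowest dKO liver, dKO 3, was 41.8 times the highest control, control 2. The means were 1119 ± 350 in dKO livers and 14.0 ± 2.58 in control livers (SD, n = 4 each), a ratio of 80.0 and a change of 6.23 ± 0.22 on the log2(value + 0.5) scale (SE), which ranked 26th of the 20055 changes tested, counted from the highest. Its reads are not easily mistaken for those of a relative, since no stretch of 50, 100 or 150 bases of its annotated transcripts occurred in a transcript of another gene, which also held for Ly6e. The dKO livers differed among themselves by 2.05-fold, with dKO 2 and dKO 4 high and dKO 1 and dKO 3 low.

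Ly6e was the most abundant member in both groups. It had 16300, 17769, 15291 and 16387 normalised reads in dKO livers 1 to 4, against 3406, 3574, 3694 and 3206 in control livers 1 to 4, and the groups were well apart: the lowest dKO value was 4.14 times the highest control value. The means were 16437 ± 1018 in dKO livers and 3470 ± 212 in control livers (SD, n = 4 each), a log2 change of 2.24 ± 0.08 (SE). The spread within each group was small, with a coefficient of variation of 6.19% among dKO livers and 6.11% among control livers, the smallest of the 8 genes.

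Ly6a, the gene of Sca-1, had 178, 277, 294 and 295 normalised reads in dKO livers 1 to 4, against 141, 116, 79.9 and 120 in control livers 1 to 4. The groups lay close, since dKO 1, the low liver of its group, was 1.27 times control 1, the high one of its own. The means were 261 ± 56.0 in dKO livers and 114 ± 25.2 in control livers (SD, n = 4 each), a log2 change of 1.19 ± 0.20 (SE), and 1.36 without dKO 1. This was the smallest change among the 5 measurable Ly6 genes.

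Ly6c1 had 76.4, 86.9, 86.9 and 95.9 normalised reads in dKO livers 1 to 4, against 9.24, 10.3, 4.21 and 20.6 in control livers 1 to 4. The dKO livers were alike and the controls were not: the highest dKO value was 1.25 times the lowest, and the highest control value, in control 4, was 4.89 times the lowest. The means were 86.5 ± 7.96 in dKO livers and 11.1 ± 6.87 in control livers (SD, n = 4 each), a log2 change of 3.10 ± 0.39 (SE), and 3.46 without control 4. Ly6c2, its close copy, had 23.1, 54.5, 45.1 and 39.1 normalised reads in dKO livers 1 to 4, against 15.4, 4.10, 6.31 and 16.01 in control livers 1 to 4. Here dKO 1 was only 1.44 times the highest control, control 4. The means were 40.5 ± 13.2 in dKO livers and 10.5 ± 6.13 in control livers (SD, n = 4 each), a log2 change of 2.04 ± 0.46 (SE), and 2.30 without control 4.

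The reads of Ly6c1 and Ly6c2 are not fully separable. Their coding sequences of 396 bases were identical at 387 positions, or 97.7%, with a longest identical run of 188 bases, and 10.1% of the 100-base stretches of Ly6c1 transcripts and 5.81% of those of Ly6c2 also occurred in another gene, chiefly each other. The sources used here do not say how reads that match both genes were counted. Summed over the pair, so that the split of reads between them has no bearing, the level was 99.6, 141, 132 and 135 normalised reads in dKO livers 1 to 4, against 24.6, 14.4, 10.5 and 36.6 in control livers 1 to 4. The sum was 127 ± 18.7 in dKO livers and 21.5 ± 11.7 in control livers (SD, n = 4 each), again with no overlap.

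Ly6a, Ly6c1, Ly6c2, Ly6g and Ly6i form 1 group by sequence and Ly6d, Ly6e and Ly6k stand outside it. Within the group, coding identity in global alignments ran between 78.3% (Ly6c2 with Ly6g) and 97.7%, and Ly6a was 86.4% identical with Ly6i and 82.0% with Ly6c1. Ly6d was 51.1% identical with Ly6c1 and 52.5% with Ly6e, and Ly6k 47.6% with Ly6a. The first 60 coding bases, which lie in the part that encodes the signal peptide, show how near these genes are to each other for short reads; capitals mark the bases that differ from Ly6a (6 in Ly6i, 2 in Ly6c1, 3 in Ly6c2 and 7 in Ly6g; GENCODE M21 transcripts, 5′ to 3′).
Ly6a: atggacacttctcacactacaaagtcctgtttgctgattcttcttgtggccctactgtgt
Ly6i: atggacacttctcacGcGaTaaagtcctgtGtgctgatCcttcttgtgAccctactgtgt
Ly6c1: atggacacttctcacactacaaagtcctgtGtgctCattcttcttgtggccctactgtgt
Ly6c2: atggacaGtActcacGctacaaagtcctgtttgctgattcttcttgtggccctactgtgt
Ly6g: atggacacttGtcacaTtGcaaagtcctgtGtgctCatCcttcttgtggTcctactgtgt
Stretches of 100 bases shared with another gene made up 1.45% of Ly6a and 0% of Ly6g and Ly6i. At 50 bases the share was 19.0% for Ly6a, of which most matched Ly6c1, and 32.8% for Ly6c1. The 5 related genes did not share a level: Ly6a and the Ly6c pair were measured in every liver, while Ly6g and Ly6i were near 0.

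Ly6g, Ly6i and Ly6k were at the limit of detection, where a count of 0 in a library allows up to 3 reads. Ly6g, the neutrophil mark, had 1, 1, 5 and 1 reads in dKO livers 1 to 4 and 0 reads in each of the 4 control livers. Ly6i had 0, 3, 2 and 5 reads in dKO livers 1 to 4, against 0, 0, 0 and 3 in control livers 1 to 4. The summed 10 reads in dKO livers and 3 in control livers gave a ratio of 2.91 after scaling (95% exact binomial interval 0.749 to 16.4, counting error only). Ly6k had 0, 4, 9 and 2 reads in dKO livers 1 to 4 and 0 in each control liver. In Ly6k, 18.5% of its 100-base stretches, read on either strand, lay in Gm17189, a gene on the opposite strand, so reads of the 2 genes cannot be told apart unless the counting used strand. Ly6g and Ly6k were among the 7 genes called higher, on these few reads, and Ly6i was not called. The size of the difference was not resolved in any of the 3 genes at this depth, and no fold change is given for Ly6g and Ly6k.

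Levels of different genes were compared per length, as reads per kilobase of exon and per 1e6 assigned reads. On that scale the order in dKO livers was Ly6e (257 ± 17.5), Ly6d (89.1 ± 28.2), Ly6a (12.9 ± 2.94), Ly6c1 (3.06 ± 0.305) and Ly6c2 (0.880 ± 0.303), and in control livers Ly6e (51.5 ± 2.77), Ly6a (5.32 ± 1.17), Ly6d (1.05 ± 0.177), Ly6c1 (0.373 ± 0.237) and Ly6c2 (0.216 ± 0.128; mean ± SD, n = 4 each). Neighbours in each order were apart beyond their ranges over livers, except Ly6c1 and Ly6c2 in control livers, whose ranges overlapped. Ly6d stood above Ly6a in dKO livers and below it in control livers: it made up 24.5% of the summed level of the 8 genes in dKO livers and 1.80% in control livers, while Ly6e made up 70.8% in dKO livers and 88.0% in control livers. Set among the protein-coding genes that were tested, Ly6d lay above 96.9% of them in dKO livers and above 39.2% in control livers.

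**Figure D2:**
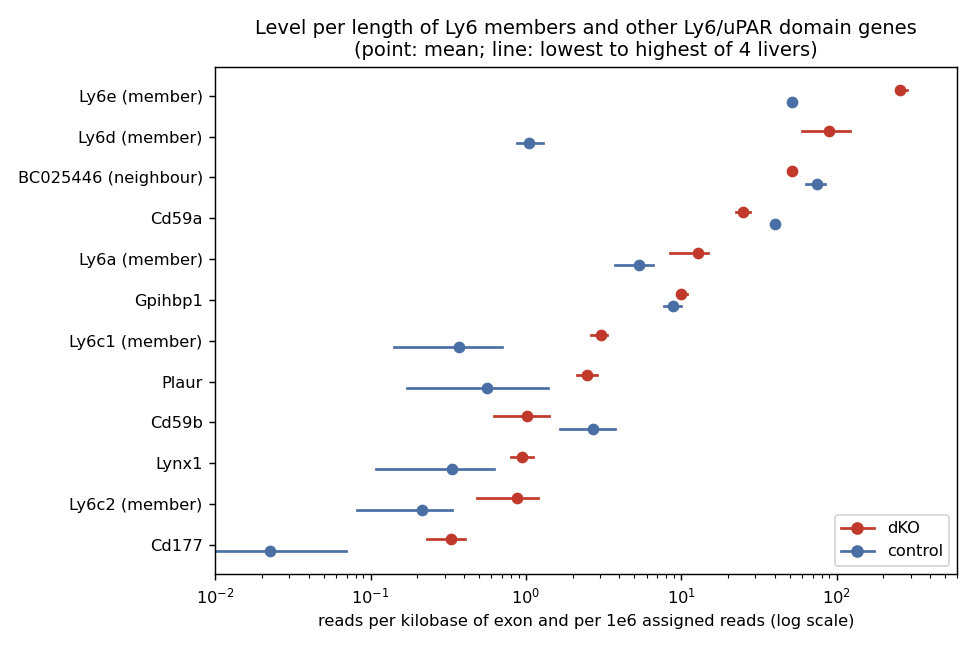
Reads per kilobase of exon and per 1e6 assigned reads (x axis, log scale) of the Ly6 genes, the other Ly6/uPAR domain genes and BC025446, all with a mean of 10 or more normalised reads in a group; points are means and lines run between the lowest and the highest of 4 livers, dKO above control in each row. Ly6d moves across the axis between 89.1 in dKO livers and 1.05 in control livers, while Cd59a and BC025446 are lower in dKO livers; a line that ends at the left edge includes a liver at 0.

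The Ly6 genes lie in 1 stretch of chromosome 15 (mm10; GENCODE M21 coordinates, which use the same build). Ly6d is at chr15:74762056-74763620, on the minus strand, Ly6e at chr15:74955051-74959905, on the plus strand, Ly6a at chr15:74994877-74998031, Ly6c1 at chr15:75044018-75048830 and Ly6c2 at chr15:75108158-75111970, all 3 on the minus strand. Between and beside them, 15 other genes of the table lay within the stretch that the 9 named genes span, and 10 of these were tested. Of the 10, 3 were called higher in dKO livers and 1 lower, beside 21.2% and 17.0% of all genes tested. Their median log2 change was 0.78, and 0.01 with the genes at 0 in every control set to the bound that 3 reads per library allow, beside 0.03 over all genes tested.

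BC025446, a protein-coding gene at chr15:75216376-75222661 where RefSeq places Ly6g2, was lower in dKO livers, unlike the 5 measurable Ly6 genes of the cluster. It had 1401, 1339, 1424 and 1352 normalised reads in dKO livers 1 to 4, against 2052, 1839, 2352 and 2187 in control livers 1 to 4, with every dKO liver below every control. The means were 1379 ± 40.2 in dKO livers and 2107 ± 217 in control livers (SD, n = 4 each), a log2 change of -0.61 ± 0.08 (SE; limma adjusted p = 8.47e-05). Per length it was at 51.5 in dKO livers and 74.6 in control livers. This made it more abundant than Ly6e in control livers and less abundant than Ly6e in dKO livers.

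9030619P08Rik, a transcribed pseudogene of the cluster by RefSeq's annotation, had 136, 282, 285 and 282 normalised reads in dKO livers 1 to 4, against 151, 150, 107 and 153 in control livers 1 to 4. The groups overlapped through dKO 1, which is also the low liver for Ly6a and Ly6c2. The means were 246 ± 73.7 in dKO livers and 140 ± 22.1 in control livers (SD, n = 4 each), a log2 change of 0.76 ± 0.23 (SE; limma adjusted p = 0.0179). The call was lost under quantile normalization (adjusted p = 0.0502) and without dKO 2, dKO 3, dKO 4 or control 3 (highest adjusted p = 0.0615). The other 2 genes called higher rested on few reads: Gml had 14 reads over the dKO livers and 0 over the controls. I830127L07Rik, which RefSeq names Ly6a2, had 20 reads over the dKO livers and 3 over the controls, with an adjusted p of 0.0357 that ranged up to 0.114 over the other settings. Gpihbp1, which lies just beyond the cluster and carries lipoprotein lipase across capillary endothelium, had a mean of 429 ± 28.4 in dKO livers and 400 ± 43.6 in control livers (SD, n = 4 each; limma adjusted p = 0.447).

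**Figure D3:**
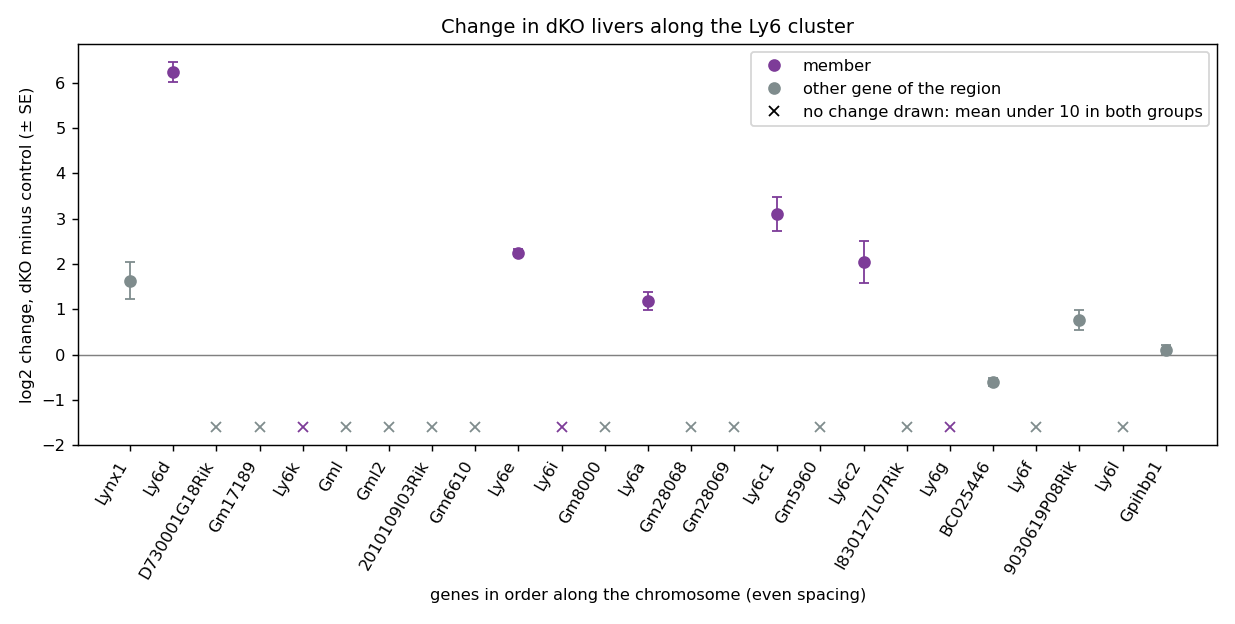
Log2 change, dKO minus control, with its SE (y axis) for genes in their order along the Ly6 region (x axis, evenly spaced); Ly6 genes named by the rule are purple and other genes grey. A cross marks a gene with a mean under 10 in both groups, for which no change is drawn; Ly6d is the highest at 6.23 and BC025446 the lowest at -0.61.

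Of 36 other genes with a Ly6/uPAR domain, 21 were found in the table and 16 were tested: 5 were called higher in dKO livers, 2 lower and 9 neither. Over all genes tested, 21.2% were called higher and 17.0% lower. The median log2 change of the list was 0.94, and 0.07 with the genes at 0 in every control at their bound, beside 0.03 over all genes tested. Plaur, the urokinase receptor, which focuses plasminogen activation on the cell surface, had 96.5, 125, 96.2 and 121 normalised reads in dKO livers 1 to 4, against 22.6, 8.21, 9.47 and 62.9 in control livers 1 to 4. Control 4 was again the high control, and the groups did not overlap (log2 change 2.53 ± 0.50, SE; limma adjusted p = 0.00152). Cd177, a surface protein of neutrophils, had 20.1, 18.5, 13.6 and 11.2 normalised reads in dKO livers 1 to 4, against 1.03, 0, 0 and 3.43 in control livers 1 to 4 (log2 change 3.85 ± 0.69, SE; limma adjusted p = 0.000734).

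Both genes that encode CD59, the GPI-anchored inhibitor of the complement membrane attack complex, were lower in dKO livers. Cd59a had 752, 770, 829 and 700 normalised reads in dKO livers 1 to 4, against 1334, 1363, 1253 and 1203 in control livers 1 to 4 (log2 change -0.76 ± 0.08, SE; limma adjusted p = 1.05e-05). Cd59b, the less abundant of the pair, averaged 22.1 ± 6.73 in dKO livers and 62.3 ± 19.5 in control livers (SD, n = 4 each; log2 change -1.47 ± 0.31, SE; limma adjusted p = 0.00215). In both genes every dKO liver was below every control. Lynx1, a Ly6 protein that acts on nicotinic acetylcholine receptors and lies beside Ly6d, averaged 74.0 ± 12.8 in dKO livers and 27.4 ± 17.02 in control livers (SD, n = 4 each; log2 change 1.63 ± 0.40, SE; limma adjusted p = 0.00625), without overlap. Lynx1 and Gpihbp1 were named after their values were seen.

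Ly6 proteins need a GPI anchor to reach the surface, and all 31 genes listed for making, attaching, remodelling or cleaving it were tested. In dKO livers 10 were called lower and 1, Pigp, higher, with a median log2 change of -0.17. The 10 include Gpld1, which cleaves the anchor (log2 change -0.22, limma adjusted p = 0.0461). They also include Pgap1, which remodels the anchor after attachment (log2 change -0.34, limma adjusted p = 0.0485). Over all genes tested, 17.0% were called lower and 21.2% higher. The called changes were small. Pigl, the de-N-acetylase of the second step of the pathway, averaged 56.4 ± 10.9 in dKO livers and 105 ± 13.2 in control livers (log2 change -0.91 ± 0.19, SE; limma adjusted p = 0.00231). Pigx, a subunit of the first mannosyltransferase, averaged 170 ± 20.1 in dKO livers and 266 ± 31.7 in control livers (log2 change -0.64 ± 0.13, SE; limma adjusted p = 0.00142). Dpm3, which tethers the dolichol-phosphate mannose synthase to the membrane, averaged 278 ± 33.7 in dKO livers and 395 ± 37.6 in control livers (log2 change -0.51 ± 0.11, SE; limma adjusted p = 0.00329), and Pigyl averaged 282 ± 34.2 in dKO livers and 391 ± 48.8 in control livers (limma adjusted p = 0.00627; SD, n = 4 each for all 4 genes). The count of lower calls was 6 without dKO 4.

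Ly6e, and in many cells Ly6a and the Ly6c genes, are induced by interferon, so interferon-stimulated genes were set beside them. Of 38 such genes tested, 24 were called higher in dKO livers, 2, Iigp1 and Irgm1, lower and 12 neither, with a median log2 change of 0.61. The shares of all genes tested were 21.2% higher and 17.0% lower. Oasl1, which restrains IRF7 translation in mice, averaged 472 ± 83.4 in dKO livers and 125 ± 26.0 in control livers (log2 change 1.92 ± 0.17, SE). Usp18, which removes ISG15 from proteins and damps interferon receptor signalling, averaged 508 ± 22.2 in dKO livers and 183 ± 20.9 in control livers (log2 change 1.47 ± 0.10, SE). Irf7, a transcription factor of the interferon response, averaged 1440 ± 82.7 in dKO livers and 682 ± 82.0 in control livers, and Zbp1, a sensor of Z-form nucleic acids, averaged 347 ± 37.7 in dKO livers and 128 ± 10.5 in control livers (SD, n = 4 each for all 4 genes). Each of the 4 passed the test (highest limma adjusted p = 2.57e-06). The fold of Ly6e, 4.74, stood beside a summed level of the interferon-stimulated list of 20536 to 22915 in dKO livers and 18090 to 19083 in control livers. The largest term of that sum was Iigp1, 1 of the 2 genes called lower, at 3987 in dKO livers and 5442 in control livers. The sum therefore understates the change of the 24 genes called higher.

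Of the genes for interferons, their receptors and the receptor kinases, 11 of 15 were found and tested, 4 were called higher in dKO livers and 1, Tyk2, lower, with a median log2 change of 0.20. The shares of all genes tested were 21.2% higher and 17.0% lower. All 4 genes of this list called higher were receptor chains. Ifngr1 and Ifngr2, the chains of the interferon gamma receptor, averaged 726 ± 62.7 and 773 ± 59.1 in dKO livers, against 363 ± 27.0 and 426 ± 10.8 in control livers. Il10rb and Ifnlr1, the chains of the interferon lambda receptor, averaged 243 ± 19.6 and 35.0 ± 12.4 in dKO livers, against 84.3 ± 17.2 and 3.28 ± 3.97 in control livers (SD, n = 4 each; highest limma adjusted p of the 4 genes = 0.00212). Ifnar1 and Ifnar2, the chains of the type I interferon receptor, were not called (limma adjusted p = 0.353 and 0.844). Of the interferons, Ifng had 4 reads over the dKO livers and 3 over the controls, and Ifnk had 4 and 2. Ifnb1, Ifnl2, Ifnl3 and Ifne were not analysed here.

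Whole-liver RNA mixes cell types, and more cells of a type and more RNA per cell cannot be told apart. All counts of markers called, here and below, stand beside 21.2% of all genes tested called higher and 17.0% called lower. Ly6c is high on inflammatory monocytes, so markers of monocytes and recruited macrophages were set beside Ly6c1 and Ly6c2. They were called higher in dKO livers in 18 of 20 cases, and the other 2 were not called. Their summed level ranged between 11517 and 16797 in dKO livers and between 2958 and 8227 in control livers, with control 4 the highest control and none of the markers at 0 in all controls. Cx3cr1, the fractalkine receptor, averaged 273 ± 66.9 in dKO livers and 26.4 ± 15.7 in control livers, and Cybb, a subunit of the phagocyte oxidase, averaged 2507 ± 349 in dKO livers and 404 ± 137 in control livers (SD, n = 4 each). Relative to the control mean, Ly6c1 was 6.90 to 8.66 times, Ly6c2 2.21 to 5.22 times and the monocyte sum 2.49 to 3.64 times in dKO livers. The ranges of Ly6c2 and of the sum overlapped. Lyz2, Csf1r and Cybb held most of the sum. Taken gene by gene, the 20 markers had a median log2 change of 2.30, beside 3.10 for Ly6c1 and 2.04 for Ly6c2. The part of these cells in the levels of Ly6c1 and Ly6c2 was not tested.

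Neutrophil markers were called higher in dKO livers in 14 of 16 cases and lower in 1, Hdc, with a summed level between 1159 and 1453 in dKO livers and between 419 and 958 in control livers. Hdc, histidine decarboxylase, which basophils and mast cells also make, held much of that sum. It averaged 276 ± 26.9 in dKO livers and 465 ± 122 in control livers (SD, n = 4 each). The other 15 markers summed to 857 to 1215 in dKO livers and 101 to 515 in control livers. Mpo and Ltf, granule proteins that maturing neutrophils make, were at 0 in every control, and Ltf averaged 46.6 ± 25.2 in dKO livers (SD, n = 4). Ly6g, which is specific to neutrophils among these cells, was at most 5 reads in any liver beside them. T and NK cell markers were called higher in 5 of 18 cases and the rest were not called (3 of 18 without dKO 1, dKO 4 or control 3, and under quantile normalization), with sums of 257 to 358 in dKO livers and 79.9 to 160 in control livers. B and plasma cell markers went in both directions, 2 of 9 higher and 3 lower, with sums of 283 to 433 in dKO livers and 201 to 381 in control livers. For the lymphocyte lists too, the shares of all genes tested were 21.2% higher and 17.0% lower. Cd79a, a chain of the B cell receptor complex, averaged 3.96 ± 1.72 in dKO livers and 14.4 ± 4.46 in control livers (SD, n = 4 each). Igkc, the constant region of the kappa light chain, which plasma cells make in quantity, averaged 134 ± 48.5 in dKO livers and 53.2 ± 25.1 in control livers (SD, n = 4 each). The part of these cells in the level of Ly6d was not tested.

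For Ly6a, whose protein marks endothelium, endothelial markers were called higher in dKO livers in 10 of 20 cases and lower in 2, Clec4g and Oit3. The count of lower calls was 0 without dKO 1 and 1 without dKO 2, dKO 3, control 1 or control 4. Sox17, a transcription factor of arterial endothelium, averaged 164 ± 17.9 in dKO livers and 67.8 ± 21.3 in control livers, and Emcn, the sialoglycoprotein endomucin, 96.4 ± 26.9 in dKO livers and 34.0 ± 3.63 in control livers (SD, n = 4 each). The summed level of the list ranged between 13223 and 16709 in dKO livers and between 10009 and 12191 in control livers. The part of endothelial cells in the levels of Ly6a, Ly6c1 and Ly6c2 was not tested. Kupffer cell markers were called higher in 6 of 11 cases and lower in 1, Cd163, with sums of 12527 to 19435 in dKO livers and 8191 to 9407 in control livers.

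For Ly6d, markers of squamous and urothelial epithelium were set beside it. Of 11 listed, 7 were found and tested, 1 was called higher and 6 were not called (limma; the median log2 change was 1.72, and 0 with the genes at 0 in every control at their bound). Without dKO 1, 3 were called higher, and without control 2, 2 were. Over all genes tested with all 8 livers, 21.2% were called higher. The gene called with all 8 livers was Sprr1a, a cornified envelope precursor that is also induced in injured tissues, with 158, 501, 228 and 499 normalised reads in dKO livers 1 to 4, against 1.03, 0, 0 and 5.72 in control livers 1 to 4. In Sprr1a as in Ly6d, dKO 2 and dKO 4 were the high dKO livers. Such a match among livers 1 to 4 arises easily by chance, and nothing is read from it. Krt5, a keratin of stratified epithelia, and Sprr1b were at 0 in every control and at most 7.45 in any dKO liver. Krt14 had 3 reads over the dKO livers and 2 over the controls, Trp63 had 3 and 7, and Krt4 had 17 and 3. Upk1b, a uroplakin of urothelium named here after its values were seen, had 9.05, 17.6, 20.4 and 0 normalised reads in dKO livers 1 to 4, against 9.24, 3.08, 3.16 and 24.02 in control livers 1 to 4. It was not called (limma adjusted p = 0.907). The summed level of the list was 168 to 530 in dKO livers and 4.21 to 34.3 in control livers. Most of it was Sprr1a in dKO livers and Upk1b in control livers. Bile duct and progenitor markers were called higher in 9 of 10 cases, all but Kit, and their sum ranged between 9196 and 13520 in dKO livers and between 931 and 2243 in control livers. Spp1 averaged 9498 ± 1900 in dKO livers and 705 ± 365 in control livers, and Prom1 362 ± 103 in dKO livers and 28.4 ± 7.13 in control livers (SD, n = 4 each). Control 4 was the highest control in the bile duct sum, at 1.59 times the control mean. Spp1 alone held most of that sum in dKO livers, and 1247 of the 2243 in control 4. The part of bile duct or epithelial cells in the level of Ly6d was not tested.

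Hepatocyte markers were called higher in 2 of 9 cases and lower in 3, beside 21.2% and 17.0% of all genes tested. Their sums were 1444595 to 1534730 in dKO livers and 1461808 to 1561953 in control livers, ranges that overlapped. Cyp2e1, an ethanol-metabolising cytochrome of the pericentral zone, averaged 23289 ± 6603 in dKO livers and 141541 ± 19002 in control livers (SD, n = 4 each; limma adjusted p = 5.41e-07). Of 5 adrenal cortex genes listed, 3 were found and 2 tested, of which 1, Cyp21a1, was called higher, at 16.2 ± 5.99 in dKO livers and 0.526 ± 1.05 in control livers.

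**Figure D4:**
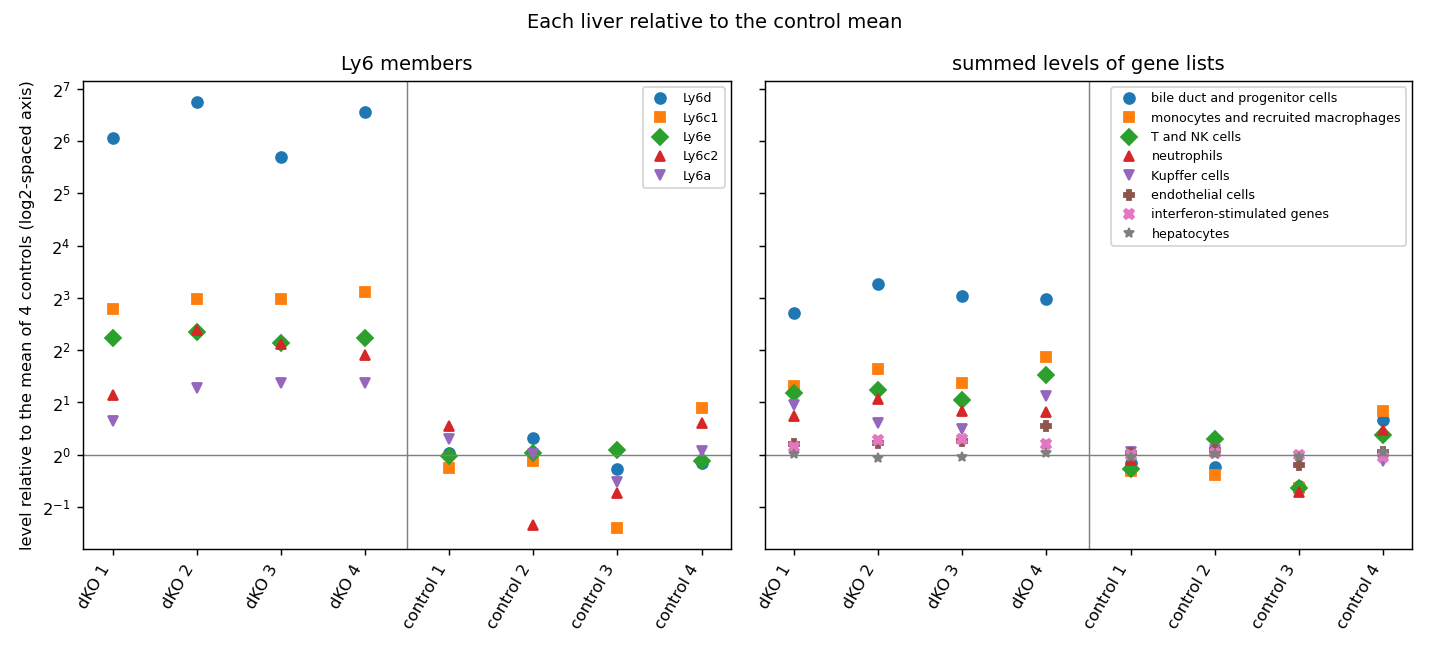
Level in each liver divided by the mean of the 4 control livers (y axis, log2-spaced), for 5 Ly6 genes (left) and for summed gene lists (right), with dKO livers left of the line and control livers right of it in each panel. Ly6d lies between 52.1 and 107 in dKO livers and near 1 in controls. Control 4 lies above the other controls for Ly6c1, the monocyte sum (1.78) and the bile duct sum (1.59).

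The genes most like each member over the 8 livers were found by the root mean square difference of their log2 levels, each centred on its gene mean, among protein-coding genes; with 2 groups this picks genes with a similar change and a similar spread. For Ly6d they were Ccl20, the ligand of CCR6, at a difference of 0.337 (25.9 ± 6.17 in dKO livers and 0 in every control liver), and Sdcbp2, at 0.354 (93.2 ± 22.0 in dKO livers and 1.32 ± 0.491 in control livers). For Ly6e they were Npas4, which at 1.86 ± 0.126 in dKO livers and 0 in control livers was under the limit of detection, and Igsf8, an immunoglobulin superfamily member, at 0.121 (1083 ± 98.3 in dKO livers and 217 ± 21.1 in control livers). Ly6a was nearest to Kctd17, at 0.150, and Fcgr4, an activating Fc receptor of myeloid cells, at 0.159 (240 ± 43.2 in dKO livers and 93.8 ± 16.6 in control livers). Ly6c1 was nearest to Tnfrsf10b, the mouse TRAIL death receptor, at 0.227, and Sema4d at 0.275. Ly6c2 was nearest to Fam180a at 0.179 and Fkbp10, a chaperone of collagen folding, at 0.290 (SD, n = 4 each throughout).

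Because ZFP36L1 and ZFP36L2 act through AU-rich elements, the 3′ UTRs of the annotated transcripts were searched for TATTTAT, on the transcribed strand. None of the 8 Ly6 genes held it in any annotated form, with longest UTRs of 300 bases in Ly6d, 1192 in Ly6e, 385 in Ly6a, 389 in Ly6c1 and 382 in Ly6c2, against 29.7% of the 16041 protein-coding genes of the table with a 3′ UTR. The longest UTRs of Ly6g, Ly6i and Ly6k had 387, 380 and 90 bases. The share over all genes was not matched for UTR length, and a short UTR has less room for the word. The match says only whether these letters are present.

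Promoter windows, 250 bases before to 50 after a gene's start, were given by RefSeq (GRCm38.p6) for 3 of the genes, Ly6c1, Ly6c2 and Ly6g, each with 2 starts and so 2 windows. The window of the more upstream start is shown for Ly6c1 and Ly6c2, which were higher together; capitals mark TATAAA, searched on the gene's strand.
Ly6c1: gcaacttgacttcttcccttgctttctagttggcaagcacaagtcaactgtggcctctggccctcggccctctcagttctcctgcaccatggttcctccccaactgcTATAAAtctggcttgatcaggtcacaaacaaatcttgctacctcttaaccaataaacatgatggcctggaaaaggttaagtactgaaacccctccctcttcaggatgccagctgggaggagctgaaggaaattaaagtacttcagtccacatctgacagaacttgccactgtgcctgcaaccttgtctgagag
Ly6c2: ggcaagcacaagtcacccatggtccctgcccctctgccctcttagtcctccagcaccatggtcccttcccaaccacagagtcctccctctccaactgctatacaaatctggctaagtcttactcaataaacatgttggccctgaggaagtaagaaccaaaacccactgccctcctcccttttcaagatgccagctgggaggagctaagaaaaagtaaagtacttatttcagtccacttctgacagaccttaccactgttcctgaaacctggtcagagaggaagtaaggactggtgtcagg
The windows lie at chr15:75048788-75049087 for Ly6c1 and chr15:75111922-75112221 for Ly6c2, both on the minus strand. In a global alignment 208 of 334 columns, or 62.3%, were identical, with gaps counted as differences. The 2 windows start at different points of their shared sequence, so part of the gaps comes from where they were cut. The figure is therefore not comparable with the 97.7% of the coding sequences, which aligned over 396 columns without gaps. TATAAA was present in 1 of the 2 windows of Ly6c1, the one shown, in both of Ly6g and in neither of Ly6c2, and 8.32% of all 32851 windows held it. Neither the interferon-response pair of GAAA words with 2 bases between them (3.44% of windows), nor the STAT word TTCNNNGAA (8.30%), nor the AP-1 word TGANTCA (7.81%), each read on both strands, occurred in the windows of the 3 genes.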

How the data were processed

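Whole-liver RNA of 8 mice was sequenced, 4 per group. The build was mm10 and the tools were HISAT2 2.0.5, featureCounts 1.5.0-p3, DESeq2 and fastp, per the submitters' processing notes. The table the authors deposited holds a normalised signal: 100% of its non-zero values in each library were whole multiples of 1 step (within 0.001 reads), so reads were recovered by dividing by the step. It was therefore treated as read counts divided by a size factor, whatever its label. No 2 libraries of a group agreed within sampling noise. The labels number the mice but do not tie them to batches or litters.

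The tests used limma 3.58.1 (R 4.3.3) on log2(value + 0.5), for genes with a mean of at least 0.5, 2-sided, with Benjamini-Hochberg adjustment over 20055 genes; a fold change on this scale understates that of low genes. On the recovered reads, edgeR 4.0.16 called 4018 genes higher and 3512 lower, and DESeq2 1.42.0 called 4099 higher and 3415 lower. The tests were checked on simulated data. Other settings were a pseudocount of 1, no filter, a filter at a mean of 10, quantile normalization, a replicate block and each liver left out.

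The Ly6 genes and all lists were chosen with earlier results of these data known. Named in each list were up to 4 called genes with the smallest adjusted p. Of the 22052 genes, 21796 matched GENCODE M21, which gave names, coordinates and lengths; 3 listed genes were matched through older symbols. Listed genes with no match were not analysed here, and 1 further marker gene is not reported. Coding-sequence identity was used in place of protein identity. Counting error alone is covered by intervals and limits.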

Additional observations from a re-analysis of the deposited data

Results flagged for a closer look

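Within each group of 4, a liver was picked out where its gap to the nearest other liver was a larger share of the group's range than Dixon's 95% critical value; 13 of 128 groups of values were, where chance gives about 1 in 20; that share does not apply to 4 of them, in which the other 3 livers were at 0 and any read is picked out. The values are normalised reads, and the causes were not tested. Among the Ly6 genes, Ly6a was low in dKO 1, at 178, Ly6g was high in dKO 3, at 4.26, and Ly6i was high in control 4, at 3.43. Of the deleted genes, Zfp36l1 was high in dKO 4, at 267, and Zfp36l2 was low in control 3, at 997. In the cluster, 9030619P08Rik was low in dKO 1, at 136, and in control 3, at 107, and I830127L07Rik was above 0 among the controls in control 3 alone, at 3.16. Among marker genes, Ccr7 was high in dKO 4, at 23.3, and Lck high in dKO 3, at 40.9. In the controls, Cyp21a1 was high in control 3, at 2.10, Ngp was above 0 in control 3 alone, at 1.05, and Spp1 was high in control 4, at 1247.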

How the results depend on the processing

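The log2 changes of the 5 measured Ly6 genes kept their direction under every setting tried: Ly6d ranged between 6.02 and 6.42, Ly6e between 2.21 and 2.48, Ly6a between 1.03 and 1.36, Ly6c1 between 2.73 and 3.46 and Ly6c2 between 1.62 and 2.30. Quantile normalization gave Ly6e 2.48, a move larger than its spread, and shifted the median of all genes to -0.08, where it was 0.03; it called 3638 genes higher and 4312 lower. Some counts moved by over 1.5 times. Other Ly6/uPAR genes called higher were 2 with a filter at a mean of 10, which tests fewer genes. GPI-anchor genes called higher were 0 under quantile normalization, 2 with the replicate block and 0 to 2 with a liver left out, and those called lower were 6 to 9 with a liver left out. Interferon-stimulated genes called lower were 1 with the replicate block and 1 to 2 with a liver left out. Cluster genes called higher were 1 with the filter at 10, 1 under quantile normalization and 1 to 2 with a liver left out. Among marker lists, calls also moved for hepatocytes (1 higher under quantile normalization), B and plasma cells (1 lower with the filter at 10, 1 higher under quantile normalization), Kupffer cells (2 lower under quantile normalization and without dKO 4), squamous markers (1 lower without dKO 3) and adrenal cortex (0 higher with the filter at 10). No result reversed, and the causes were not tested. Mice with the same number did not deviate together (correlations 0.03, -0.07, 0.04 and 0.08), so the numbers do not pair them; the replicate block gave 4021 genes higher and 3112 lower. With 4 livers a group, genes under about 10 reads were limited by depth.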
